A study of Mus musculus with 2 samples.

Results

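Of the 9327 GL261 cells that passed the cell filter in the 2 cultures, 1680 had no counted transcript of 5 proliferation genes. GL261 is an established mouse glioma line, and the labels give its strain as C57BL/6 and its cell type as astrocytoma. Adherent cells were grown in DMEM with 10% fetal bovine serum and taken off the flask with trypsin. Neurospheres, which are free-floating aggregates, were grown in the same medium to which fibroblast growth factor and epidermal growth factor, each at 20 ng/ml, and the supplement B-27 had been added, were collected at day 12, and were broken up with trypsin and by pipetting. Both suspensions were frozen with DMSO before 10x Genomics libraries were made, 1 library per culture, so cultures are compared without replicates, the culture and the library cannot be told apart, and no p-value is given. A cell was kept with at least 1000 unique molecular identifiers (UMIs, counted transcript molecules) and with at least the number of genes that the study set as its minimum, which was higher for neurospheres, after mitochondrial and ribosomal protein genes had been removed. Cells with 0 UMIs of each of Mki67, Top2a, Rrm2, Cenpf and Ube2c are called marker-negative, and all other kept cells of the same culture marker-positive. There were 561 marker-negative cells among 5051 kept adherent cells and 1119 among 4276 kept neurosphere cells.

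Cells that divide switch on waves of transcripts in a fixed order. At the G1/S transition, E2F factors released from the retinoblastoma protein drive genes for DNA replication, and before mitosis a later wave encodes kinases, cyclins and spindle proteins. In cells that rest in G0 or early G1, the DREAM complex binds the promoters of both waves and holds them down. The 5 genes of the rule sit in these waves: Rrm2 encodes the ribonucleotide reductase subunit that is made for S phase, Top2a the topoisomerase that untangles chromosomes, Cenpf a kinetochore protein, Ube2c the E2 enzyme of the anaphase-promoting complex, and Mki67 the antigen Ki-67, which coats mitotic chromosomes.

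The promoters of Mki67, Top2a and Rrm2 are shown because late cell cycle genes are known to share 2 elements, the CCAAT box that NF-Y binds and the cell cycle genes homology region (CHR) that DREAM and other MuvB complexes bind. Each line gives the 250 bases before the RefSeq transcription start in GRCm38.p6, 5′ to 3′ on the gene's own strand. Capitals mark CHR letters (TTTGAA or TTCGAA on either strand) and CCAAT boxes (on either strand). The minus-strand Mki67 promoter lies at chr7:135716380-135716629, the minus-strand Top2a promoter at chr11:99024190-99024439, and the plus-strand Rrm2 promoter at chr12:24708004-24708253.
Mki67: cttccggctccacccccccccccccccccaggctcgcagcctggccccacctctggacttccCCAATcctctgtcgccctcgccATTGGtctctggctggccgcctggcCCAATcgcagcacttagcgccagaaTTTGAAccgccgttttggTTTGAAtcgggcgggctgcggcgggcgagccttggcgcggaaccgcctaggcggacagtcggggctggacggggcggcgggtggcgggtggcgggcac
Top2a: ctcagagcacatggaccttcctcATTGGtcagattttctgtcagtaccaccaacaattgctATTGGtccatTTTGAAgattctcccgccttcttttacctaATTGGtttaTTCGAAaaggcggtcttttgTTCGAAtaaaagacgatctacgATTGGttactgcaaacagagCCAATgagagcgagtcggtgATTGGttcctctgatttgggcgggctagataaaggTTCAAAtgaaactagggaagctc
Rrm2: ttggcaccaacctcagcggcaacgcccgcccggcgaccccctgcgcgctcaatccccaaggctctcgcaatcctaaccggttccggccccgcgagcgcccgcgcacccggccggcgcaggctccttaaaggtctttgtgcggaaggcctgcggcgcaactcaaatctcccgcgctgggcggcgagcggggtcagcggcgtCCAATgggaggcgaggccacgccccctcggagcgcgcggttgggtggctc
In the window of 300 bases from 250 before to 50 after the start, 4 of the 5 rule genes held CHR letters and 5 held a CCAAT box, and Rrm2 was the gene without CHR letters. Those of Cenpf lay after the start. Of 32851 RefSeq promoters of that length, 19.2% held CHR letters, 37.4% held a CCAAT box and 7.52% held both, where the 2 motifs can share a base at their ends. Among promoters of the G2/M list described below, 38 of 53 (71.7%) held CHR letters and 40 (75.5%) a CCAAT box. Among those of the G1/S list, 7 of 35 (20%) held CHR letters and 24 (68.6%) a CCAAT box. A match is a description of letters and no evidence of binding in these cells.

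Marker-negative cells made up 11.1% of kept adherent cells (exact binomial 95% interval 10.3 to 12.0) and 26.2% of kept neurosphere cells (24.9 to 27.5). These intervals, and those given below, cover counting error only. The rule depends on depth, since a shallow cell can miss a transcript that it holds. How much of the difference in depth between the groups comes from this was not tested. The median marker-negative cell had 5824 UMIs in adherent culture, where the median marker-positive cell had 8623, and 8248 against 15558 UMIs in neurospheres. At equal depth the order of the cultures was the same. Among cells with 8000 to 11314 UMIs, 71 of 1558 adherent cells (4.56%, 3.58 to 5.71) and 378 of 933 neurosphere cells (40.5%, 37.3 to 43.7) were marker-negative. With each cell thinned to 5000 UMIs, 12.6% of 4464 adherent and 34.4% of 4196 neurosphere cells had none of the 5 transcripts (at full depth, 8.11% and 25.2% of those same cells). Too shallow for thinning were 587 adherent cells and 80 of the neurosphere cells. Each rule gene alone was missing from more cells than all 5 together. Ube2c was at 0 in 19.4% of adherent and 42.1% of neurosphere cells, Top2a in 38.1% and 42.2%, Cenpf in 51.7% and 55.6%, Mki67 in 61.9% and 62.6%, and Rrm2 in 74.1% and 58.4%.

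**Figure D1:**
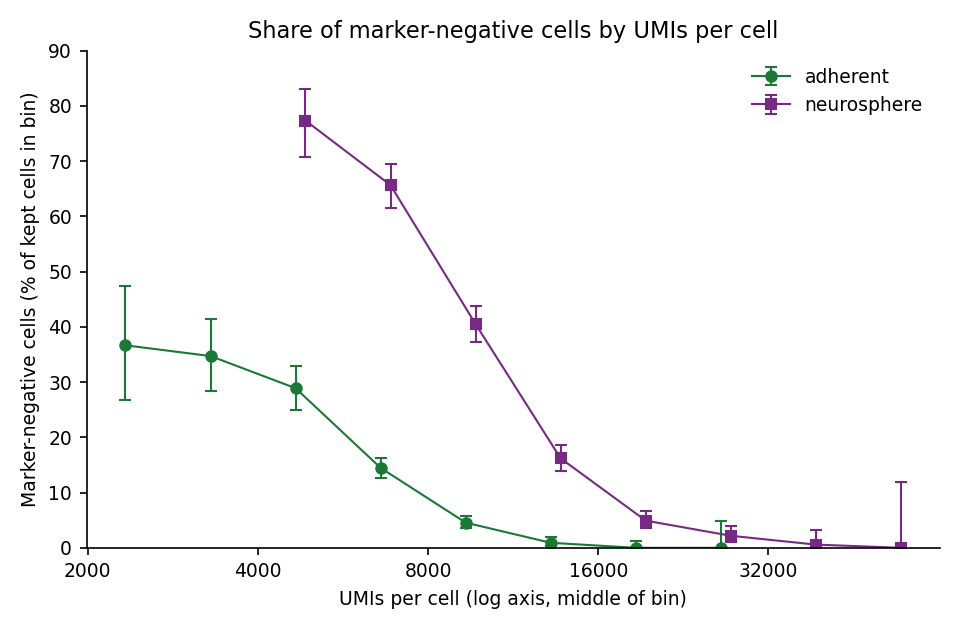
The y axis gives the percentage of kept cells that were marker-negative and the x axis UMIs per cell on a log scale, in bins that hold at least 20 cells; bars are exact binomial 95% intervals. The share falls with depth in both cultures, from 77.4% at 4000 to 5657 UMIs to 4.92% at 16000 to 22627 UMIs in neurospheres, and the adherent line lies below it.

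Other measures of the cells moved with the rule. The median share of UMIs on mitochondrial genes was 2.25% in marker-negative and 2.00% in marker-positive adherent cells, and 4.65% and 3.74% in neurospheres. Cells with 10% or more mitochondrial UMIs were 2.32% of marker-negative and 0.646% of marker-positive adherent cells, and 1.43% and 0.634% in neurospheres. The median ribosomal protein share was 29.7% and 29.6% in adherent cells and 14.8% and 16.4% in neurospheres. The part of mitochondrial content in the results was not tested, though the shares were 10.9% and 26.0% among cells under 10% mitochondrial UMIs. Barcodes shared between the libraries numbered 9 among kept cells, and 0 of them were marker-negative in both.

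The G2/M list of 55 genes, none of which is a rule gene, was low in marker-negative cells of both cultures. Levels are UMIs per 1000000 UMIs (CPM), summed over a group of cells, and a gene was tested if its 2 group values averaged at least 25 CPM. Over all 5340 genes tested in adherent cells, 176 (3.3%) were at least 1.5-fold lower and 159 (2.98%) at least 1.5-fold higher in marker-negative cells. In neurospheres, 619 of 6176 (10%) were lower and 660 (10.7%) higher. Since the rule picked cells by transcripts of this same program, the counts describe the cells and test nothing. With marker-positive cells weighted to the depth of the marker-negative ones, 135 genes were lower and 30 higher in adherent cells, so that the share of higher genes among all called went from 47.5% to 18.2%, and 307 were lower and 122 higher in neurospheres (from 51.6% to 28.4%). With TMM scaling those shares were 32.4% and 39.6%.

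Of the G2/M list, 40 genes were tested in each culture, and 35 were at least 1.5-fold lower in adherent and 39 in neurosphere marker-negative cells, with 0 higher in either. The median log2 ratio was -2.09 in adherent cells and -3.36 in neurospheres, against 0.05 and 0.06 over all genes tested, and -1.48 and -2.73 after depth weighting. Aurkb, the kinase of the chromosomal passenger complex, was at 3.04 CPM in marker-negative and 63.3 CPM in marker-positive adherent cells (log2 ratio -4.38, 95% interval -5.44 to -3.50), and at 2.08 and 82.8 CPM in neurospheres (-5.32, -6.01 to -4.70). Hmmr, which encodes a spindle and hyaluronan-binding protein, was at 23.4 and 215 CPM in adherent cells and at 2.87 and 199.5 CPM in neurospheres (-6.12, -6.70 to -5.60). Ccna2, cyclin A2, was at 7.90 and 79.4 CPM in adherent cells and 2.87 and 104 CPM in neurospheres. Birc5, which encodes the passenger protein survivin, was at 82.9 and 516 CPM in adherent cells and 18.4 and 494 CPM in neurospheres. Cbx5, a heterochromatin protein that cells use throughout the cycle, had the smallest difference of the list in both cultures (log2 ratios -0.24 and -0.17).

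The 10 genes with the lowest ratios in adherent cells were Aurkb, Fbxo5 (the inhibitor of the anaphase-promoting complex, Emi1), Nusap1, Hist1h2ap, Ccna2, Hmmr, the kinetochore motor Cenpe, Depdc1a, Pbk and Ccnb1 (cyclin B1), with log2 ratios between -4.38 and -3.05. In neurospheres Hmmr, Pbk, Cenpe, Nusap1, Aurkb, Ccna2, Birc5, Pimreg, Depdc1a and the polo-like kinase Plk1 lay between -6.12 and -4.75. Hmmr had a UMI in 8.20% of marker-negative and 60.0% of marker-positive adherent cells, and in 1.88% and 65.0% in neurospheres. No cell type that should lack these genes exists in a culture of 1 cell line, so a background share from free RNA could not be set beside these values.

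The G1/S list was lower as well, by less than the G2/M list in each culture. Of 43 genes, 26 were tested in adherent cells and 16 were at least 1.5-fold lower, beside 3.3% of all genes, with a median log2 ratio of -0.70 (depth-weighted, -0.57). Depth weighting put Gins2, Hells, Rfc2, Tipin, Usp1 and Mcm3 of these under 1.5-fold. In neurospheres 31 of 32 were lower, beside 10% of all genes, with a median of -1.93 (depth-weighted, -1.79). Clspn, which encodes the replication checkpoint adaptor claspin, was at 10.0 against 44.9 CPM in adherent cells (log2 ratio -2.16) and 3.46 against 47.4 CPM in neurospheres (-3.77). Pcna, the sliding clamp of DNA polymerase, was at 136 against 193 CPM in adherent cells (log2 ratio -0.50) and 76.4 against 242 CPM in neurospheres (-1.66). The helicase subunit Mcm5 was at 17.3 against 39.0 CPM in adherent cells and 13.7 against 67.6 CPM in neurospheres. Uhrf1, which guides maintenance of DNA methylation, passed the level filter in neurospheres (6.33 against 65.8 CPM, log2 ratio -3.38).

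Of the histone genes, 8 of 13 tested were at least 1.5-fold lower in adherent and 5 of 10 in neurosphere marker-negative cells, beside 3.3% and 10% of all genes. The medians of -0.81 and -0.61 became -0.54 and -0.48 with depth weighting, which put Hist1h1e and H1f0 in adherent cells and H1f0 in neurospheres under 1.5-fold. Hist1h1b, a linker histone gene that is copied in S phase, was at 11.2 against 70.3 CPM in adherent cells and 3.66 against 61.8 CPM in neurospheres. The replacement histone gene H3f3a, which is used outside S phase, was at 1503 against 1443 CPM and at 3091 against 2618 CPM. Hist1h1c, another linker histone gene, was the 1 gene of the list that was higher, in neurospheres, at 46.1 against 17.1 CPM (log2 ratio 1.43). Histone cluster genes are near copies of each other, so counts of single members are uncertain.

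Cells were also grouped by the number of rule UMIs that they carried. Lists of the cycle are bound to rise with that number, and so did depth, from a median of 5824 UMIs in marker-negative cells to 10150 in cells with 6 or more rule UMIs in adherent culture and from 8248 to 17980 in neurospheres, so these levels are a description. Just outside the rule were 517 adherent and 473 neurosphere cells with 1 UMI of the 5 genes. The summed G2/M list was at 3123 CPM in marker-negative adherent cells, 3788 CPM in cells with 1 UMI and 10695 CPM in cells with 6 or more. In neurospheres it was at 1875, 2588 and 12328 CPM. On this list, cells with 1 UMI lay nearer to the marker-negative cells than to those with 6 or more. The summed G1/S list was at 1527, 1850 and 2661 CPM in adherent culture and at 1211, 1945 and 4339 CPM in neurospheres, where cells with 1 UMI again lay nearer to the marker-negative cells. This did not hold for every list. Nuclear long noncoding RNA in neurospheres stood at 5643, 3976 and 2629 CPM, and the summed ribosome biogenesis list in adherent cells at 9005, 9909 and 10782 CPM. In both of these, cells with 1 UMI lay nearer to those with 6 or more.

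**Figure D2:**
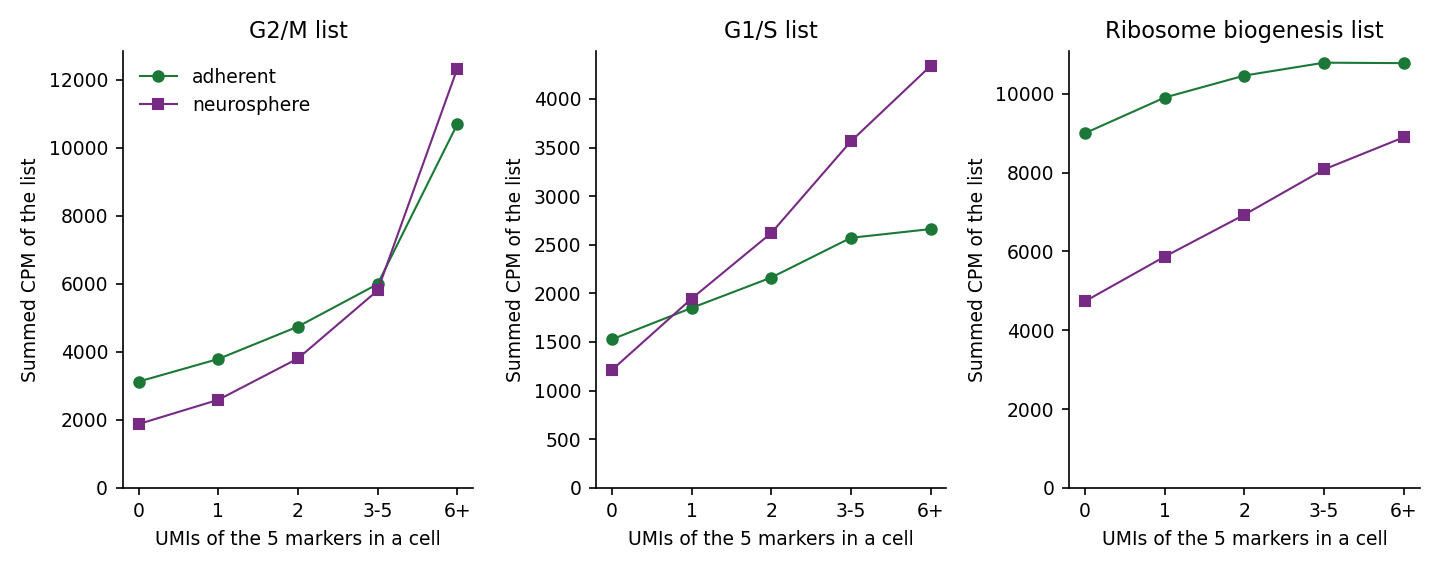
Each panel gives the summed CPM of 1 gene list (y axis) in cells grouped by how many UMIs of the 5 rule genes they held (x axis), with circles for adherent and squares for neurosphere cells. From 0 to 6 or more UMIs the G2/M list goes from 3123 to 10695 CPM in adherent cells and from 1875 to 12328 CPM in neurospheres, and the ribosome biogenesis list from 9005 to 10782 CPM and from 4737 to 8900 CPM.

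In single cells thinned to 5000 UMIs, a marker-negative cell held a median of 13 G2/M list UMIs in adherent culture and 8 in neurospheres, where marker-positive cells held 40 and 47. A few marker-negative cells reached the marker-positive median: 7 of 362 (1.93%) in adherent culture and 4 of 1056 (0.379%) in neurospheres. For the G1/S list more did, with 63 of 362 adherent cells (17.4%) at or above the marker-positive median of 12 UMIs and 36 of 1056 neurosphere cells (3.41%) at or above 18 UMIs.

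Regulators of entry into the cycle differed less than its output. D-type cyclins, which couple growth factor signals to the kinases Cdk4 and Cdk6, stayed expressed in marker-negative cells. Ccnd1 was at 1014 against 884 CPM in adherent cells (log2 ratio 0.20) and 1186 against 1453 CPM in neurospheres (-0.29). Ccnd2 was at 530 against 419.5 CPM in adherent cells (0.34) and 129 against 86.6 CPM in neurospheres (0.58). Of the list of G1 cyclins, E2F factors and retinoblastoma family genes, 0 of 11 were past 1.5-fold in adherent cells and 5 of 13 were lower in neurospheres, beside 10% of all genes there. These 5 were E2f1 (23.6 against 49.4 CPM), Ccne1, cyclin E1 (22.2 against 44.9 CPM), Tfdp1, the partner of E2F (61.5 against 119 CPM), Cdk2 (36.9 against 56.4 CPM) and E2f4 (42.6 against 64.4 CPM, log2 ratio -0.60, depth-weighted -0.37).

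No inhibitor of cyclin-dependent kinases was at least 1.5-fold higher in marker-negative cells of either culture. Of 6 tested in each culture, 2 were lower, beside 3.3% of all genes in adherent cells and 10% in neurospheres: Cdkn3, a phosphatase gene that peaks at mitosis (39.2 against 79.8 CPM), and Cdkn2d (51.9 against 98.3 CPM) in adherent cells, and Cdkn2d (55.9 against 115 CPM) and Cdkn2c (39.1 against 73.6 CPM) in neurospheres. Cdkn1a, which encodes p21, was at 277 against 245 CPM in adherent cells (log2 ratio 0.18) and 301 against 258 CPM in neurospheres (0.22). Cdkn1b, which encodes p27, was at 28.2 against 28.8 CPM and 25.1 against 26.8 CPM. Cdkn2a, which encodes p16 and p19ARF, was at 861 against 769 CPM and 459 against 510 CPM.

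Among targets of p53, 2 of 11 tested were at least 1.5-fold higher in adherent marker-negative cells and 4 of 12 in neurospheres, beside 2.98% and 10.7% of all genes. In adherent cells these were Mdm2, the ubiquitin ligase of p53 (54.7 against 35.3 CPM, log2 ratio 0.63, depth-weighted 0.20), and the kinase gene Plk2 (54.1 against 35.5 CPM, 0.61, depth-weighted 0.61, and 0.57 without the cell with the most UMIs of it). In neurospheres they were Trp53inp1, Btg2, Bbc3 and Sesn1. Trp53inp1, a stress-induced partner of p53, was at 57.0 against 14.9 CPM (1.94, depth-weighted 1.22). Depth weighting put Bbc3 (0.84 to 0.54) and Sesn1 (0.81 to 0.23) under 1.5-fold. The median of the list was 0.18 in adherent cells and 0.23 in neurospheres, and 0.20 and 0.06 after depth weighting.

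Of the growth arrest list in neurospheres, 8 of 12 tested were at least 1.5-fold higher, beside 10.7% of all genes, with a median log2 ratio of 0.77 that became 0.41 with depth weighting. In adherent cells 2 of 10 were, Mxd4 and Btg1 (depth-weighted 0.18), beside 2.98% of all genes, and the median of 0.41 became 0.12. Btg2, an antiproliferative gene of the BTG/Tob family, was at 431 CPM in marker-negative and 139 CPM in marker-positive neurosphere cells (log2 ratio 1.63, depth-weighted 0.91). It was at 45.9 and 30.9 CPM in adherent cells (0.57). Its relatives Btg1 and Tob1 were at 74.6 against 34.2 CPM and 98.0 against 46.0 CPM in neurospheres. Mxi1, which like Mxd4 encodes a partner of Max that opposes Myc, was at 49.8 against 30.3 CPM in neurospheres (0.72, depth-weighted 0.40).

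Mxd4 led the genes that were higher in both cultures. It was at 52.2 CPM in marker-negative and 23.2 CPM in marker-positive adherent cells (log2 ratio 1.17, 95% interval 0.93 to 1.40), and at 152 and 56.2 CPM in neurospheres (1.44, 1.35 to 1.53). Depth weighting left 0.75 and 0.71. In cells thinned to 5000 UMIs it was detected in 23.5% of marker-negative and 11.2% of marker-positive adherent cells, and in 50.3% and 23.9% of neurosphere cells. The next 9 by the lower of their 2 ratios were Dnajb4, Malat1, Neat1, Ypel5, Mbp, 4933421O10Rik, Gm20756, Gadd45a and Maged2. Malat1, a nuclear long noncoding RNA, was at 5099 against 2850 CPM in adherent cells and 4922 against 2389 CPM in neurospheres. Neat1, the scaffold RNA of paraspeckles, was at 348 against 167 CPM and 599.9 against 336 CPM. Depth weighting took Malat1 from 0.84 to 0.47 and from 1.04 to 0.50, and Neat1 from 1.06 to 0.39 and from 0.84 to 0.50, each under 1.5-fold. Levels of nuclear RNA can depend on whether intronic reads were counted, which is not given in the sources used here. Gadd45a, a growth arrest and DNA damage gene, was at 257 against 139 CPM in adherent cells and 42.7 against 23.6 CPM in neurospheres (depth-weighted 0.68 and 0.73). Mbp, a myelin protein gene that this line transcribes, was at 430 against 241 CPM and 240.5 against 102 CPM, and depth weighting took it under 1.5-fold, from 0.83 to 0.53 and from 1.24 to 0.55. Of the 10 genes, Mxd4, Ypel5 and Gadd45a were past 1.5-fold in both cultures after depth weighting, and each of the others fell under it in at least 1 culture.

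**Figure D3:**
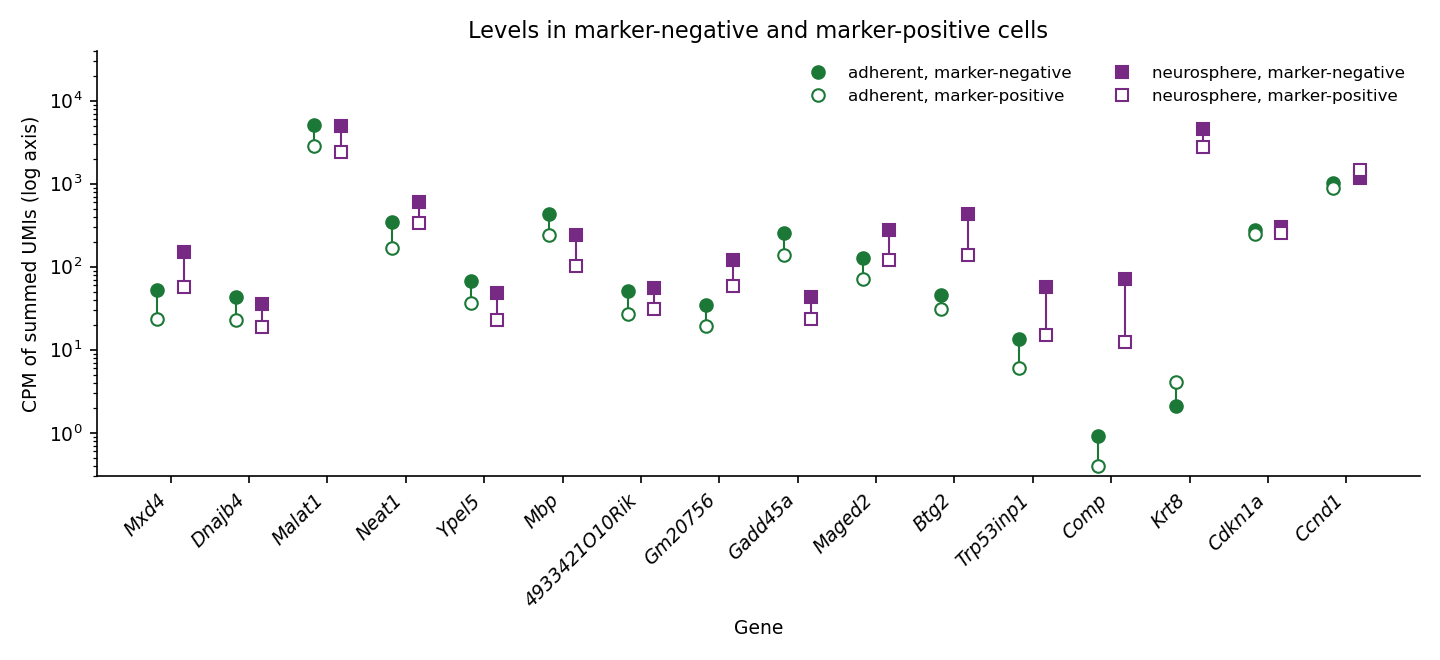
CPM of summed UMIs (log axis) for the 10 genes that were highest in both cultures, from Mxd4 to Maged2, and for 6 others chosen after their values were seen; filled symbols are marker-negative and open symbols marker-positive cells. Mxd4 goes from 23.2 to 52.2 CPM in adherent and from 56.2 to 152 CPM in neurosphere cells, while Cdkn1a goes from 245 to 277 and from 258 to 301 CPM.

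The other genes among the 10 highest in adherent cells were led by Fosl2, an AP-1 subunit (41.6 against 19.1 CPM, log2 ratio 1.12), Cited2, a CBP/p300 cofactor (219 against 105 CPM, 1.06), and Dusp1, the phosphatase that switches off MAP kinases (102 against 50.3 CPM, 1.03). Then came Gm49066, the transporter gene Slc47a1 (261 against 135 CPM), the adhesion gene Nrcam, and Ccn1, a target of YAP (79.6 against 42.2 CPM). Depth weighting left Dusp1 at 0.92 and Cited2 at 0.72, but put Gm49066, Slc47a1, Nrcam and Ccn1 under 1.5-fold. Fosl2 came to 0.58 with depth weighting, just under 1.5-fold. In neurospheres Dusp1 was at 25.5 against 25.4 CPM, and Cited2 at 84.4 against 50.6 CPM.

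The ribosome biogenesis list also holds Myc, Odc1 and Srm, which do not themselves make ribosomes. Its genes were lower in neurosphere marker-negative cells, where 15 of 17 tested were past 1.5-fold, beside 10% of all genes. Their median log2 ratio was -0.998. In adherent cells 1 of 17 was (Nop58, 131 against 217 CPM, depth-weighted -0.50), beside 3.3% of all genes, with a median of -0.32. Depth weighting gave -0.65 and -0.27. Ncl, nucleolin, was at 292 against 613 CPM in neurospheres and 726 against 976 CPM in adherent cells. Npm1, nucleophosmin, was at 3004 against 5013 CPM and 5732 against 6405 CPM. Srm, spermidine synthase, had the lowest ratio of the list in neurospheres, at 77.3 against 199.7 CPM. Myc itself, the factor that drives these genes in growing cells, was at 91.0 against 101 CPM in neurospheres and 66.2 against 58.6 CPM in adherent cells.

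Of the heat shock genes, which encode chaperones, 5 of 9 were at least 1.5-fold lower in neurospheres, beside 10% of all genes: Hsph1, Hspd1, Hsp90aa1, Hspe1 and Hspa8. Hspd1, the mitochondrial chaperonin, was at 680 against 1323 CPM (log2 ratio -0.96, depth-weighted -0.54). In adherent cells 0 were lower, and the small heat shock gene Cryab was higher at 4377 against 2869 CPM (0.61, depth-weighted 0.62). Without 1 cell, which held 549 of the 14414 Cryab UMIs, that ratio was 0.56, under 1.5-fold. Of the integrated stress response genes, 3 of 14 were lower (Mthfd2, Phgdh and Atf4) and 2 higher (Ddit4 and Ddit3) in neurospheres, beside 10% and 10.7% of all genes. Without the marker-negative cell with the most UMIs of it, Ddit3 fell under 1.5-fold. In adherent cells 1 of 16 was past 1.5-fold (Nupr1, higher at 260.2 against 166 CPM), beside 2.98% of all genes. Ddit4, an inhibitor of mTORC1, was at 237 against 108 CPM in neurospheres (1.13, depth-weighted 0.68).

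In neurospheres differentiation genes of this line took a larger share of UMIs in marker-negative cells, and depth weighting lowered these ratios. A marker-negative cell held fewer UMIs in all, and its mean number of UMIs was 57.8 against 62.5 for the cartilage matrix list and 43.0 against 57.9 for the oligodendrocyte lineage list. Of the cartilage matrix list, 7 of 8 genes were at least 1.5-fold higher, beside 10.7% of all genes, with a median log2 ratio of 0.84, which became 0.26 with depth weighting. Comp, cartilage oligomeric matrix protein, was at 71.7 against 12.4 CPM (2.53, depth-weighted 1.18) and Matn1, matrilin 1, at 252 against 92.2 CPM (1.45, depth-weighted 0.73). Col2a1, type II collagen, was at 147 against 59.8 CPM (1.29), and depth weighting left 0.23. Of the oligodendrocyte lineage list, 6 of 10 were higher with a median of 0.66, which became 0.08. Cnp, a myelin gene, was at 792 against 469.9 CPM (depth-weighted 0.45), and Olig2, the lineage factor, at 449 against 468 CPM. Enpp2, which encodes autotaxin, turned direction, from 1.57 to -0.08. In adherent cells 1 of 5 cartilage genes (Col2a1, log2 ratio 0.72, depth-weighted 0.53) and 2 of 7 oligodendrocyte genes (Mbp and Bcas1, depth-weighted 0.53 and 0.44) were past 1.5-fold, beside 2.98% of all genes.

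The other genes among the 10 highest in neurospheres were the secreted gland-type genes Mucl2 and Esp15, the PDZ domain gene Pdzd2, Btbd17, the regulator of G protein signaling Rgs16, the PI3-kinase subunit gene Pik3r3, Myzap and the neuronal pentraxin Nptx1. Mucl2 was at 99.3 against 9.14 CPM (log2 ratio 3.44), from UMIs in 31 of the 1119 cells, and 1 cell held 171 of its 1003 UMIs. Esp15 belongs to a family of near copies, so its counts are uncertain. Pdzd2 was spread over more cells, with UMIs in 44.5% of marker-negative and 22.6% of marker-positive cells at 164 against 30.9 CPM (2.41, depth-weighted 1.17). It was at 83.5 against 54.1 CPM in adherent cells (0.63, depth-weighted 0.17). Mucl2 and Esp15 had 0 UMIs in both groups of adherent cells.

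The counts of higher genes in the next lists stand beside 10.7% of all genes in neurospheres and 2.98% in adherent cells. Interferon-stimulated genes were higher in neurosphere marker-negative cells for 5 of 11 tested, with a median of 0.58 (depth-weighted 0.40), and for 0 of 12 in adherent cells, where the median was 0.05. Ifit1 and Ifit3, which encode antiviral RNA-binding proteins, were at 84.4 against 38.6 CPM and 61.1 against 28.0 CPM in neurospheres (depth-weighted 0.81 and 0.40). Krt8, a simple epithelial keratin abundant in neurospheres, was at 4563 against 2741 CPM there (log2 ratio 0.74, depth-weighted 0.62) and at 2.13 against 4.07 CPM in adherent cells. Of the TGF-beta, BMP and Id list, 2 of 5 were higher in neurospheres (median 0.40, depth-weighted 0.28) and 0 of 3 in adherent cells (median 0.10). The 2 were Id3, a BMP target that blocks differentiation factors, at 347 against 129.8 CPM (1.42, depth-weighted 0.59), and Tgfb2, a TGF-beta ligand, at 72.7 against 23.7 CPM (1.62, depth-weighted 0.87). Lysosomal genes were past 1.5-fold for 2 of 15 in neurospheres, Psap and Ctsd (depth-weighted 0.25 and 0.32), and for 0 of 15 in adherent cells, a share in neurospheres near that of all genes. In the lists of other tissue and signal genes, 2 of 4 astrocyte genes in neurospheres (S100b and Glul, depth-weighted 0.45 and 0.30) and 0 of 5 in adherent cells were higher. Of the immediate early list, Dusp1 was the 1 of 9 past 1.5-fold in adherent cells, and Klf2 (67.9 against 26.8 CPM) and Fos (226 against 145 CPM) were the 2 of 11 in neurospheres, all of them higher. Of the other extracellular matrix list, 2 of 6 were higher in adherent cells (Col6a1 and Lamc1, the latter at 0.62 and depth-weighted 0.06) and 2 of 4 in neurospheres (Sparc and Col18a1, depth-weighted 0.39 and 0.35). The neuronal gene Map2 was higher in neurospheres (328 against 160 CPM, depth-weighted 0.38), and 0 of 2 neuronal genes were past 1.5-fold in adherent cells. Of the hypoxia list, Ldha, lactate dehydrogenase A, was the 1 of 6 that was lower in neurospheres (211 against 336 CPM), beside 10% of all genes, and 0 of 5 genes were past 1.5-fold in adherent cells.

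**Figure D4:**
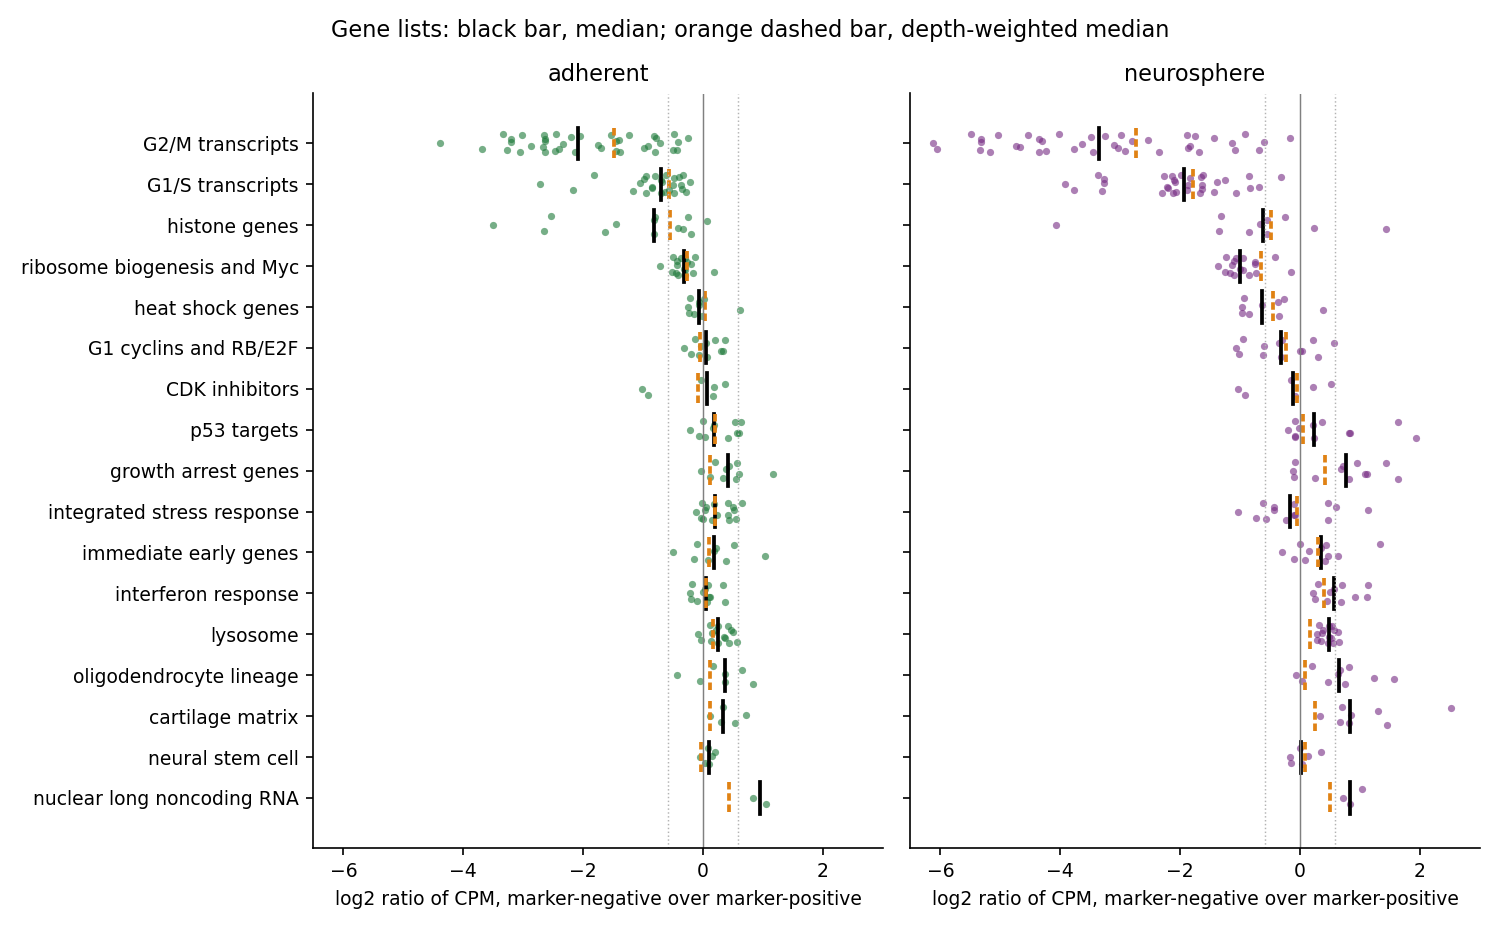
Each point is 1 tested gene, at the log2 ratio of its CPM in marker-negative over marker-positive cells (x axis), with a row for each of 17 gene lists and a panel for each culture; dotted lines mark 1.5-fold. The G2/M medians lie at -2.09 (adherent) and -3.36 (neurosphere), and in neurospheres the depth-weighted medians of the cartilage (0.26) and oligodendrocyte (0.08) lists lie far below the unweighted ones (0.84 and 0.66).

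Neural stem cell genes that passed the level filter, 6 of 13 in each culture, differed little between the groups. Hes5 of the same list, under the filter, was at 35.8 against 13.7 CPM in neurospheres (log2 ratio 1.39, interval 1.20 to 1.57). Of the 6 neural stem cell genes tested in each culture, 0 were past 1.5-fold in either, with medians of 0.09 in adherent cells and 0.01 in neurospheres. Sox2 was at 237 against 207 CPM in adherent cells and 183 against 179.6 CPM in neurospheres. Nes, nestin, was at 110.2 against 104 CPM and 199.8 against 201 CPM. None of the 17 immune, endothelial and blood cell markers reached the level filter. Their summed level was 24.3 CPM in marker-negative and 17.4 CPM in marker-positive adherent cells and 9.01 and 9.92 CPM in neurospheres, and 11 and 9 of them had 0 UMIs in marker-negative cells.

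The 2 cultures shared direction more than size. Of 4861 genes tested in both, 152 (3.13%) were at least 1.5-fold lower in the marker-negative cells of both cultures, which is 95% of the 160 lower in adherent and 26.9% of the 565 lower in neurosphere cells. Another 68 (1.4%) were higher in both, which is 54.4% of 125 and 19.3% of 352. No tested gene was past 1.5-fold in opposite directions. Across genes, which are not independent replicates, the 2 sets of log2 ratios had a Pearson correlation of 0.851 and a Spearman correlation of 0.738, and 0.792 and 0.727 without the G1/S, G2/M and histone lists. Both sets were chosen by the same 5 genes and share the dependence on depth. By their medians the neurosphere difference was the larger for the G2/M, G1/S and ribosome biogenesis lists. The histone medians (-0.61 in neurospheres and -0.81 in adherent cells) cover different genes, 10 and 13 tested, so they do not rank the cultures. Summed over its 21 genes, the histone list was at 7685 against 10418.5 CPM in neurospheres and 6979 against 8869 CPM in adherent cells. The marker-positive cells that served as the comparison also differed. Their summed G2/M list stood at 9027 CPM in adherent culture and at 10314 CPM in neurospheres.

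**Figure D5:**
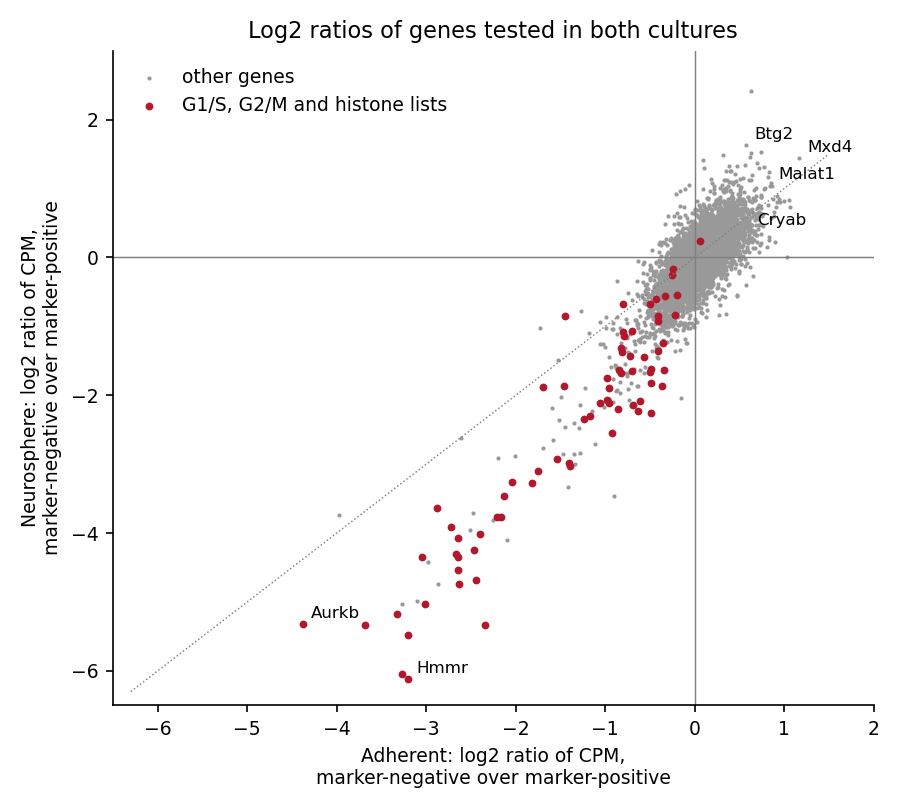
Each point is a gene tested in both cultures, at its log2 ratio of CPM in marker-negative over marker-positive adherent cells (x axis) and neurosphere cells (y axis); red points belong to the G1/S, G2/M and histone lists and the dotted line marks equal ratios. Most red points lie below that line, as Hmmr does at -3.20 and -6.12.

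Marker-negative cells were not uniform. Variation among them was measured as the variance above the Poisson variance, divided by the squared mean, which had a median of 0.182 over 5406 genes in adherent and 0.213 over 6212 genes in neurosphere cells. The 10 most variable genes in adherent cells were Gm13889, Spp1, Il11, Ly6a, Cxcl10, Vgf, Rhox5, Tsc22d3, Gadd45g and Tex14, with values between 9.81 and 32.9. Cxcl10, an interferon-induced chemokine, was found in 118 of the 561 cells, and the 10% of cells with the most UMIs of it held 91.9% of its UMIs. Its level was no higher than in marker-positive cells, at 256 against 298 CPM. Tsc22d3, a glucocorticoid-induced leucine zipper gene, varied at 15.1 among marker-negative and 0.504 among marker-positive cells, and the same cell held the most UMIs of it and of Gadd45g. The 10 genes were ranked by marker-negative cells alone, and Spp1 (74.9), Il11 (35.8) and Tex14 (11.1) had the higher values among marker-positive cells.

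In neurospheres the 10 most variable were Hmox1, Cryab, Esp15, Esp16, Serpina3n, Ackr3, Btbd17, Enpp2, Ifit3 and Fabp7. Hmox1, heme oxygenase 1, had a value of 444 among marker-negative and 1.16 among marker-positive cells, and 1 cell with 21834 UMIs held 1179 of its 1730 UMIs. That same cell held 1349 of the 4866 Cryab UMIs. Hmox1 was at 171 against 59.6 CPM (log2 ratio 1.52), and without that cell the ratio was -0.13. For Cryab the ratio went from 0.38 to -0.09. Fabp7, a fatty acid-binding protein of radial glia, was found in 185 cells with 87.6% of its UMIs in 10% of the cells. Fabp7 (27.7), Enpp2 (47.4) and Ifit3 (34.9) varied more among marker-positive cells. Esp15 and Esp16 were found in 61 and 62 marker-negative cells, 25 of them shared. These genes are near copies, so their counts are uncertain, and the cause of the sharing was not tested. Mucl2, in 31 cells, shared 9 cells with each.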

How the data were processed

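Per the labels and the study's methods, GL261 cells were profiled with the 10x Genomics single cell 3′ chemistry, 1 library for adherent cells and 1 for neurospheres. The authors deposited raw UMI counts per gene and cell for 5764 and 4951 called cells. The submitters' processing notes name Cell Ranger 7.0.1 and mm10; annotation and intron setting are not given in the sources used here. Genes beginning mt-, Rps or Rpl were removed, and cells filtered as stated, which left 46290996 and 64943938 UMIs. Doublets were not removed and no caller was run; instead cells over the 95th percentile of UMIs were left out as an alternative. No cells were clustered.

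UMIs were summed over marker-negative and marker-positive cells and scaled to CPM. Ratios have exact conditional 95% intervals and shares exact binomial ones, which cover counting error only. With 1 library per culture there is no test. Depth weighting compared mean CPM per cell after weighting marker-positive cells to the marker-negative distribution over bins of 0.25 log2 UMIs. TMM factors (edgeR 4.0.16, R 4.3.3) came from the tested genes. Named genes were the 10 largest and 10 smallest log2 ratios (1 CPM added) per culture at an average of at least 25 CPM without the rule genes, the 10 largest by the lower ratio of both cultures, the 10 most variable among marker-negative cells with a UMI in at least 5% of them, and list genes. The members and the 27 lists were chosen with earlier results of these data known. Promoters came from RefSeq (GRCm38.p6). Scripts used Python 3.11.15, numpy 2.4.6, scipy 1.17.1 and pandas 2.3.3, and were tested on simulated data.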

Additional observations from a re-analysis of the deposited data

Results flagged for a closer look

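Spp1, the secreted phosphoprotein osteopontin, was past 1.5-fold in opposite directions in the 2 cultures, though in neurospheres it was under the level filter, at an average of 16.6 CPM, and is not among the genes tested in both. In adherent cells it was at 37.3 CPM in marker-negative and 58.4 CPM in marker-positive cells (log2 ratio -0.64, interval -0.92 to -0.38), and in neurospheres at 25.6 and 7.53 CPM (1.77, 1.54 to 1.99). Depth weighting took the adherent ratio to -0.20, under 1.5-fold, and the neurosphere ratio to 1.63. The difference between cultures was not tested, as each has 1 library. In neurospheres 1 cell held 157 of the 259 UMIs, and without it the ratio was 0.43.

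Ccl2, a monocyte chemokine, was likewise opposite, at 6.68 against 0.535 CPM in adherent cells (log2 ratio 3.64) and 3.86 against 28.1 CPM in neurospheres (-2.86), under the level filter in both cultures. This difference was not tested either. In adherent cells 1 cell held 19 of the 22 UMIs, and without it the ratio was 0.77.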

How the results depend on the processing

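No paired analysis was possible because each culture has 1 library and the labels give no shared replicate numbers, and for the same reason no replicate could be left out. The adherent share of 11.1% became 12.6% with cells thinned to 5000 UMIs, 8.11% in cells with at least 5000 UMIs, 8.03% with the higher gene minimum of the neurospheres and 21.3% when 1 UMI of the markers was allowed. The neurosphere share of 26.2% became 34.4% with thinning, 27.5% without cells over the 95th percentile of UMIs and 37.2% with 1 UMI allowed. Each culture's own gene minimum is the reported value, and the other 7 values lay within the counting intervals of the shares.

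Counts of genes moved further. The count of 159 higher genes in adherent cells was 30 with depth weighting, 103 in cells with at least 5000 UMIs, 100 after TMM scaling, 82 when the total included mitochondrial and ribosomal genes, 85 with 1 UMI allowed, 837 in cells with at least 10000 UMIs (16 marker-negative cells, a setting added after seeing the data), 484 at 10 CPM, 24 at 100 CPM, 4364 with no filter and 5 at 2-fold. The 176 lower adherent genes became 626 at 10000 UMIs, 328 at 10 CPM, 50 at 100 CPM, 5623 with no filter and 83 at 2-fold. In neurospheres the 660 higher genes became 122 with depth weighting, 1192 at 10 CPM, 198 at 100 CPM, 6350 with no filter and 145 at 2-fold, and the 619 lower genes became 307 with depth weighting, 221 at 100 CPM, 5089 with no filter and 229 at 2-fold. A looser or stricter level filter changes how many genes are counted; for the other settings the cause was not tested.

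List medians kept their sign under every alternative for 17 of 24 lists in adherent cells and 22 of 24 in neurospheres. In adherent cells the sign turned for the lists of G1 cyclins, CDK inhibitors, interferon response, secreted inflammatory genes, heat shock, neural stem cell and neuron genes, and in neurospheres for hypoxia and neural stem cell genes. With depth weighting, 16 of 30 named genes past 1.5-fold in adherent and 28 of 36 in neurosphere cells were still past it. The 10 lowest genes of each culture all stayed past it. The genes that fell under it, 14 in adherent and 8 in neurosphere cells, were therefore higher ones, except Spp1 in adherent cells. Enpp2 reversed in neurospheres with depth weighting (-0.084), Hmox1 without its top cell (-0.13), and Ccn1 (-0.63) and Gm49066 (-0.078) in adherent cells with at least 10000 UMIs. Leaving out the marker-negative cell with the most UMIs of a gene put the list genes Plk2, Btg1, Ccl5, Cryab and Bcas1 in adherent cells and Ddit3 and Krt18 in neurospheres under 1.5-fold. Depth limits the rule itself, since 199 adherent and 63 neurosphere marker-negative cells had fewer than 5000 UMIs.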
